A study of Mus musculus with 6 samples.

Results

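ATF4 and CHOP, the product of Ddit3, stand at the centre of the integrated stress response, and 10 genes of this axis were followed by their mouse symbols in RNA-seq libraries of RAW264.7 macrophages. The genes were Atf4, Ddit3, Atf3, Trib3, Ppp1r15a, Cebpb, Cebpg, Nupr1, Sesn2 and Gadd45a, and all 10 were found among the 49315 genes of the count table. RAW264.7 is an established mouse line of macrophage type, wild type in all libraries. The small molecule SKI-II is known to inhibit sphingosine kinases. Cells received 4 μg/mL of SKI-II or an equal amount of its solvent DMSO for 24 h, without infection, and poly(A) RNA of 3 libraries per group was sequenced. The labels do not say whether the 3 libraries came from separate cultures, while the study's methods refer for treatment and extraction to its qPCR assay, which they describe as run on biological replicates. The p-values measure the spread between these libraries. The study asked whether SKI-II acts through the ER stress kinase PERK. The comparison of SKI-II with DMSO shows what happened to 10 mRNAs known to respond to that kinase, among other inputs. PERK was not blocked in any of these libraries, so the changes cannot be assigned to it.

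In the integrated stress response, one of several kinases, among them PERK, phosphorylates the translation factor eIF2 alpha. Most translation then slows, while the mRNA of Atf4 is translated more, because upstream open reading frames in its leader are read past. ATF4 is a bZIP factor, and it pairs with C/EBP proteins on sites in its target genes. Ddit3, Atf3, Trib3, Sesn2 and Nupr1 are known targets, and CHOP in turn induces Ppp1r15a, whose product GADD34 brings a phosphatase to eIF2 alpha and closes the loop. Protein levels and phosphorylation were not measured in these libraries, only mRNA. A bulk library gives no level per cell, so more cells expressing a gene and more RNA per cell cannot be told apart.

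The promoters of 4 of the 10 genes held a short motif known for this or a neighbouring pathway in the 250 bases before the RefSeq start (mouse build GRCm38.p6), and these stretches are shown first because the results below turn on several of the same genes. The motifs searched on both strands were the C/EBP-ATF response element as TGATGNAAN, the cyclic AMP response element (CRE) as TGACGTCA, the core of the antioxidant response element as TGACNNNGC and the ER stress response element, by its standard consensus. The CRE and the antioxidant core share their opening letters, but no window of the 10 genes held more than 1 match. Each site below is written 5′ to 3′ on the strand of its gene, with the matching bases in capitals.
Atf3, C/EBP-ATF response element, chr1:191183426-191183454, minus strand: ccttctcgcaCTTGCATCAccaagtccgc
Nupr1, C/EBP-ATF response element, chr7:126625563-126625591, minus strand: aaagggccagATTGCATCAgacagggctt
Ppp1r15a, CRE, chr7:45526269-45526290, minus strand: gcctctccggTGACGTCAgcac
Sesn2, antioxidant response element core, chr4:132510474-132510502, minus strand: cgcagcgggcTGACAGAGCcgggcgagcg
The sites of Atf3 and Nupr1 both ran from 111 to 103 bases before the start and were matches of the opposite strand. The RefSeq starts are not always the outer ends of the annotated genes. In GENCODE M21 the Atf3 site lies inside the gene, outside its exons, because a longer transcript starts further upstream. The whole window of Nupr1 lies in annotated exons of its strand and inside the gene, and the match of Sesn2 lies in an annotated exon. The CRE of Ppp1r15a lay 12 to 5 bases before the start, and the match of Sesn2 lay 36 to 28 bases before it. Of all 32851 promoters in the table, 3.44% held the C/EBP-ATF response element, 1.55% the CRE, 10.2% the antioxidant core and 0.113% the ER stress response element. The last was in none of the 10 windows, and Atf4, Ddit3, Trib3, Cebpb, Cebpg and Gadd45a held no match, which says only that these letters are not in that window.

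The stretch before the RefSeq start is given for 3 genes, as far as it is free of annotated exons on the same strand. They are Ppp1r15a, which had the largest rise, Atf3, whose site is a C/EBP-ATF element, and Ddit3, whose window held no exact match. The stretch of Ddit3 does hold cgtgccgctttctgattgg. On the opposite strand this differs by 1 letter from the ER stress response element searched, so it was not counted.
Ppp1r15a, chr7:45526269-45526518, minus strand: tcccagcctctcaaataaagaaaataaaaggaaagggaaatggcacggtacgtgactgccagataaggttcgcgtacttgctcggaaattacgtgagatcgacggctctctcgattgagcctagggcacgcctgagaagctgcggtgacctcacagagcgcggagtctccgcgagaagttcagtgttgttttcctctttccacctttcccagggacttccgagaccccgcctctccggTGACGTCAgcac
Atf3, chr1:191183341-191183583, minus strand: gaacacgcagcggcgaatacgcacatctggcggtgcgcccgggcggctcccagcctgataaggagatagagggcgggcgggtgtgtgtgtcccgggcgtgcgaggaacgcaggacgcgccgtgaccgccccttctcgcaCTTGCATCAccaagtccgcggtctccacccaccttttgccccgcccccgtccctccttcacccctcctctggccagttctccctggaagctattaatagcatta
Ddit3, chr10:127290543-127290773, plus strand: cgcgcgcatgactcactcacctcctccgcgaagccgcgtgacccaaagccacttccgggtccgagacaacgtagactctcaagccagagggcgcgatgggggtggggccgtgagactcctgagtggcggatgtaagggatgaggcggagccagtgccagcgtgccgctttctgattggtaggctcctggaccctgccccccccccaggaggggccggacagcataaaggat
The stretch of Ppp1r15a ends 1 base before the start, that of Atf3 8 bases and that of Ddit3 20 bases before it.

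All 10 genes were higher in the SKI-II libraries than in the DMSO libraries at an adjusted p below 0.05. This threshold was passed in the same direction by 18.4% of the 12274 genes with enough reads for a test. In 7 of the 10 the log2 fold change was also above 1, against 8.28% of tested genes. For each of the 10 genes the lowest SKI-II library exceeded the highest DMSO library, as it did for 24.8% of tested genes. In the opposite direction the 3 shares of tested genes were 19.7%, 7.44% and 25.5%. Because the 10 genes were chosen with earlier results of these data known, these shares give a background and not a test. The fitted log2 fold changes ran from 0.41 to 3.15 with a median of 1.29, where the median of all tested genes was 0.0038. The raw counts behind them lay between 96 and 11110 per gene and library, in libraries of 12495957 to 20050677 counts. With a library left out in turn, 8 or 9 of the 10 genes passed the test, and 5 to 7 were also above a log2 fold change of 1. The genes that lost the call in one or more of these fits were Atf4, Cebpg and Nupr1.

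**Figure D1:**
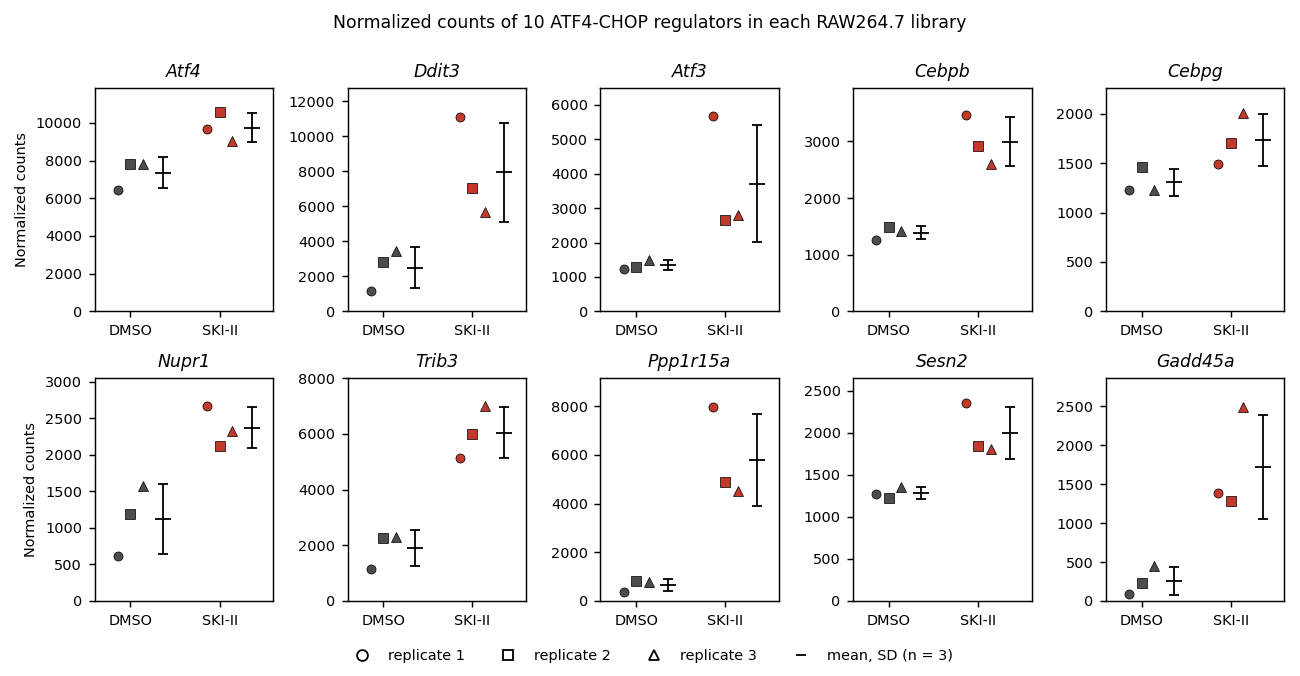
Normalized counts (y axis, linear from 0) of the 10 genes in the 3 DMSO and the 3 SKI-II libraries, with a symbol for each replicate number and the mean with its SD (n = 3) beside each group. In every panel the SKI-II points lie above the DMSO points, and the gap is narrow for Cebpg and wide for Ppp1r15a.

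Atf4 encodes the factor at the head of the axis and, with Cebpg, had the smallest fitted difference of the 10 genes. The order of these 2 changed with the setting, for example with library size alone. Its normalized counts were 6418, 7845 and 7834 in DMSO replicates 1, 2 and 3 and 9651, 10565 and 9052 in the SKI-II replicates. The groups did not overlap, but the lowest SKI-II library was only 1.15 times the highest DMSO library. The mean went from 7366 ± 821 in DMSO to 9756 ± 762 in SKI-II (SD, n = 3 each), a fold of 1.32. The log2 fold change was 0.41 with a standard error of 0.14, with an adjusted p of 0.0412 (edgeR's quasi-likelihood F test, Benjamini-Hochberg adjusted). Atf4 lies on chromosome 15 (80255184 to 80257541, plus strand of GRCm38), and its fitted rise ranked 3146 among all tested genes. The call was lost without DMSO replicate 1 (adjusted p = 0.140 in edgeR's test, log2 fold change 0.30). Leaving out DMSO replicate 2 gave 0.103 and 0.44 for the same values, SKI-II replicate 1 gave 0.0722 and 0.41, and SKI-II replicate 2 gave 0.149 and 0.35, none of them a call in that test.

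Ddit3 encodes CHOP, the bZIP factor that ATF4 induces and that is known for its part in cell death under prolonged ER stress. It was at 1174, 2838 and 3440 normalized counts in the DMSO libraries and at 11086, 7012 and 5675 in the SKI-II libraries. DMSO replicate 1 stood well below the other DMSO libraries and SKI-II replicate 1 well above the other SKI-II libraries. The mean rose from 2484 ± 1174 to 7924 ± 2819 (SD, n = 3 each), a log2 fold change of 1.67 with a standard error of 0.36 (adjusted p = 0.00552, edgeR's quasi-likelihood F test, Benjamini-Hochberg adjusted). With any library left out the log2 fold change lay between 1.32 and 1.98 and the call held. Ddit3 lies on chromosome 10 (127290774 to 127296288, plus strand) and overlaps Mars, a methionyl-tRNA synthetase gene on the opposite strand. Since the strand setting of the counting is not given in the sources used here, reads of the shared stretch cannot be assigned with certainty. Mars had 3757 to 7035 counts per library, and its log2 fold change was -0.34 (adjusted p = 0.0931, edgeR's test with Benjamini-Hochberg adjustment), opposite in sign to that of Ddit3.

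Trib3, a pseudokinase that is induced by ATF4 and CHOP and known to restrain ATF4, rose by about as much as Ddit3. The DMSO libraries held 1137, 2262 and 2297 normalized counts and the SKI-II libraries 5146, 5984 and 6994. Here SKI-II replicate 1 was the lowest of its group, the reverse of its place for Ddit3. From 1899 ± 660 to 6041 ± 925 (SD, n = 3 each), the log2 fold change was 1.67 with a standard error of 0.24 (adjusted p = 0.000714, edgeR's quasi-likelihood F test, Benjamini-Hochberg adjusted). Trib3 lies on chromosome 2 (152337422 to 152344032, minus strand).

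Ppp1r15a, which encodes the stress-induced phosphatase subunit GADD34, had the largest rise of the 10 genes. It went from 380, 805 and 777 normalized counts under DMSO to 7957, 4887 and 4518 under SKI-II. The lowest SKI-II library was 5.61 times the highest DMSO library, the widest gap among the 10 genes. The means were 654 ± 238 and 5787 ± 1888 (SD, n = 3 each), an 8.86-fold difference. The log2 fold change was 3.15 with a standard error of 0.29 (adjusted p = 6.67e-05, edgeR's quasi-likelihood F test, Benjamini-Hochberg adjusted), the 109th largest rise of all tested genes. It lay between 2.84 and 3.31 with any library left out. The gene lies on chromosome 7 (45522916 to 45526268, minus strand), right behind the CRE shown above. Tulp2, which overlaps it on the opposite strand, had 5 to 19 counts per library.

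Atf3 encodes a bZIP factor that is induced by ATF4 and by many other stresses, and that limits inflammatory genes in macrophages. Its DMSO libraries were close together at 1224, 1279 and 1499 normalized counts, while the SKI-II libraries held 5676, 2657 and 2799. SKI-II replicate 1 stood apart from its group, at 2.14 times the lowest SKI-II library. The means of 1334 ± 146 and 3711 ± 1704 (SD, n = 3 each) gave a log2 fold change of 1.48 with a standard error of 0.26 (adjusted p = 0.00204, edgeR's quasi-likelihood F test, Benjamini-Hochberg adjusted). Without SKI-II replicate 1 the log2 fold change was 1.03 and the call held. Atf3 lies on chromosome 1 (191170296 to 191218039, minus strand), and its promoter holds one of the 2 C/EBP-ATF elements.

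Of the C/EBP factors, which pair with ATF4 and with CHOP, Cebpb rose clearly and Cebpg little. Cebpb, also a main regulator of inflammatory genes in macrophages, held 1258, 1487 and 1412 normalized counts in the DMSO libraries and 3474, 2912 and 2610 in those of SKI-II. Both groups were tight, and the means of 1386 ± 117 and 2999 ± 439 (SD, n = 3 each) gave a log2 fold change of 1.11 with a standard error of 0.14 (adjusted p = 0.000246, edgeR's quasi-likelihood F test, Benjamini-Hochberg adjusted). Cebpg, a C/EBP protein without an activation domain of its own, held 1225, 1466 and 1227 under DMSO and 1494, 1699 and 2012 under SKI-II. The lowest SKI-II library was only 1.02 times the highest DMSO library. The means of 1306 ± 138 and 1735 ± 261 (SD, n = 3 each) gave a log2 fold change of 0.41 with a standard error of 0.14 and an adjusted p of 0.0456 (edgeR's quasi-likelihood F test, Benjamini-Hochberg adjusted). That call was lost without DMSO replicate 1, 2 or 3, without SKI-II replicate 2 or 3, and when counts were scaled by library size alone, with adjusted p of 0.122, 0.0632, 0.107, 0.0958, 0.148 and 0.0509 in the same test. The log2 fold change was positive in each of these fits, from 0.29 to 0.49. Cebpb lies on chromosome 2 (167688915 to 167690418, plus strand) and Cebpg on chromosome 7 (35046422 to 35056573, minus strand). Tmem189 overlaps Cebpb on the opposite strand and had 1848 to 3061 counts per library.

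Nupr1 encodes a small stress-induced chromatin protein. It had 618, 1188 and 1569 normalized counts under DMSO and 2675, 2117 and 2328 under SKI-II, so that the spread lay in the DMSO group. The means of 1125 ± 478 and 2374 ± 282 (SD, n = 3 each) gave a log2 fold change of 1.08 with a standard error of 0.27 (adjusted p = 0.0116, edgeR's quasi-likelihood F test, Benjamini-Hochberg adjusted). Without SKI-II replicate 1 the log2 fold change was 0.98 and the adjusted p 0.0508 in edgeR's test, just above the threshold. Over all fits with a library left out it ran from 0.77 to 1.40. Nupr1 lies on chromosome 7 (126623249 to 126630861, minus strand).

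Sesn2 and Gadd45a, at the effector end, were the steadiest and the least steady of the 10 genes between DMSO libraries. Sesn2 encodes sestrin 2, which restrains the growth kinase mTORC1 and takes part in the antioxidant response. The DMSO libraries held 1271, 1221 and 1356 normalized counts and the SKI-II libraries 2359, 1844 and 1805, a tight pair of groups. From 1283 ± 68.2 to 2002 ± 309 (SD, n = 3 each), its log2 fold change was 0.64 with a standard error of 0.14 (adjusted p = 0.00465, edgeR's quasi-likelihood F test, Benjamini-Hochberg adjusted). Gadd45a, a gene of growth arrest and DNA damage that both p53 and ATF4 are known to induce, held 93.2, 229 and 448 normalized counts under DMSO and 1380, 1287 and 2485 under SKI-II. Its highest DMSO library was 4.80 times its lowest, the widest ratio among the 10 genes, but the lowest SKI-II library was still 2.88 times the highest DMSO library. The means of 257 ± 179 and 1717 ± 666 (SD, n = 3 each) gave a log2 fold change of 2.74 with a standard error of 0.45 (adjusted p = 0.00154, edgeR's quasi-likelihood F test, Benjamini-Hochberg adjusted). It was 2.32 without DMSO replicate 1 and 3.44 without DMSO replicate 3, a difference in fold of more than 1.5 times from the value over all libraries in the second case. Sesn2 lies on chromosome 4 (132492032 to 132510501, minus strand) and Gadd45a on chromosome 6 (67035096 to 67037457, minus strand).

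**Figure D2:**
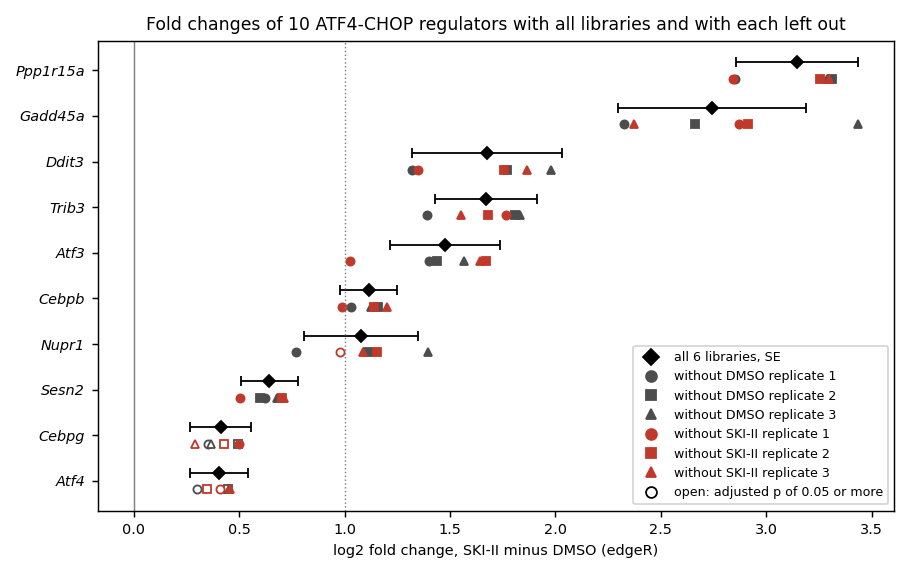
Fitted log2 fold change, SKI-II minus DMSO, of the 10 genes over all 6 libraries (diamond, with its standard error) and with each library left out in turn (small symbols, open where the adjusted p was 0.05 or more). All points lie above 0, from 0.29 to 3.44, and open symbols are seen for Atf4, Cebpg and Nupr1.

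The same DMSO library stood low for nearly all of these genes. DMSO replicate 1 was the lowest of its group for 9 of the 10 genes, the exception being Sesn2, whereas it was the lowest DMSO library for 36.4% of all genes called higher. The highest to lowest ratio among the DMSO libraries was 4.80 for Gadd45a, 2.93 for Ddit3, 2.54 for Nupr1, 2.12 for Ppp1r15a and 2.02 for Trib3. For the other 5 it was at most 1.23. Without DMSO replicate 1 the log2 fold change of Ddit3 was 1.32, that of Trib3 1.39, that of Ppp1r15a 2.85, that of Gadd45a 2.32 and that of Nupr1 0.77, and all 5 calls held. Nupr1 alone of these 5 then fell below a log2 fold change of 1. In the SKI-II group, replicate 1 was the highest for 6 of the 10 genes, where it was the highest for 51.3% of all genes called higher.

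Relative to exon length, the order of the 10 mRNAs changed with SKI-II. In RPKM, reads scaled to exon length and library size, Atf4 led in DMSO with a level of 195 ± 21.7, followed by Ddit3 with 90.4 ± 42.7 (SD, n = 3 each). Cebpb and Trib3 came next at levels of 57.4 ± 4.85 and 55.7 ± 19.3, and these neighbours did not differ beyond their spread, nor did Ddit3 from either, since its lowest library was at 42.7. Atf3, at 38.6 ± 4.22, overlapped with Ddit3 and Trib3 above it and with Nupr1 below it. Sesn2 stood at 23.0 ± 1.22, and Cebpg at 14.5 ± 1.54, Ppp1r15a at 13.9 ± 5.05 and Gadd45a at 9.06 ± 6.32 overlapped with one another. Nupr1, at 27.9 ± 11.9, was spread so widely that it overlapped with these 4 genes and with Trib3 as well.

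In SKI-II, Ddit3 reached a level of 288 ± 103 and Atf4 258 ± 20.1 on the same scale (SD, n = 3 each), which did not differ beyond their spread. Ddit3 was above Atf4 in SKI-II replicate 1, at 403 against 255, and below it in replicates 2 and 3. Trib3 followed at 177 ± 27.1, with each of its libraries above those of Cebpb at 124 ± 18.2, though not above the highest of Ppp1r15a and Atf3. Cebpb, Ppp1r15a at 123 ± 40.1 and Atf3 at 107 ± 49.3 overlapped. Gadd45a at 60.7 ± 23.5 and Nupr1 at 58.9 ± 6.99 also overlapped, and the highest library of Gadd45a, at 87.8, reached the range of Atf3. Sesn2 at 35.9 ± 5.55 and Cebpg at 19.2 ± 2.90 closed the order without overlap.

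Close relatives of the 10 genes were counted beside them. Of 18 paralogues listed, 13 had enough reads for a test, of which 4 were higher, 3 lower and 6 did not pass, with a median log2 fold change of 0.17, where 18.4% of all tested genes were higher and 19.7% lower. Batf, Batf3 and Trib2 had no counts, Sesn3 had at most 1 count per library and Nupr2 matched no gene of the table. Atf5, a bZIP relative of Atf4 known from mitochondrial stress, rose by 1.20 on the log2 scale (adjusted p = 0.000617, edgeR's quasi-likelihood F test, Benjamini-Hochberg adjusted). Cebpd, Cebpe and Trib1 rose by 1.08, 1.92 and 1.33 on the same scale (adjusted p of 0.00231, 0.000355 and 0.00764, edgeR's test). Gadd45b, Ppp1r15b and Sesn1 had log2 fold changes of -1.99, -0.95 and -0.89 (adjusted p of 0.00226, 0.000485 and 0.00174, edgeR's test). These 7 calls held with any library left out. The values of Batf2, Jdp2, Cebpa, Gadd45g, Atf2 and Atf7 lay between -0.22 and 0.42 and did not pass, and those of Jdp2 and Gadd45g changed sign with a library left out.

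The families of Ppp1r15a, Gadd45a and Sesn2 each held a gene that rose and a gene that fell. Ppp1r15b encodes CReP, the constitutive counterpart of GADD34, and each of them binds the phosphatase PP1 separately to direct it to eIF2 alpha. The normalized counts of Ppp1r15b were 2298, 2081 and 2021 under DMSO and 1113, 1242 and 949 under SKI-II, with every SKI-II library below every DMSO library. Per exon length and within a library, Ppp1r15a stood at 0.315, 0.737 and 0.733 times Ppp1r15b in DMSO replicates 1, 2 and 3 and at 13.6, 7.49 and 9.07 times in SKI-II, so that the ratio of the levels crossed 1. Gadd45a stood at 0.304, 0.437 and 0.446 times Gadd45b in DMSO and at 10.1, 8.56 and 14.4 times in SKI-II. Sesn2 was above Sesn1 in both groups, at ratios of 2.56, 2.85 and 2.58 in DMSO and 10.5, 6.77 and 6.33 in SKI-II.

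In log2 the ratio of Ppp1r15a to Ppp1r15b differed between the groups by 4.14 with a standard error of 0.48, that of Gadd45a to Gadd45b by 4.78 with 0.28 and that of Sesn2 to Sesn1 by 1.53 with 0.24. Atf4 went the other way against Atf5, from ratios of 5.84 to 7.83 in DMSO to ratios of 3.42 to 4.83 in SKI-II. The ratio of Trib3 to Trib1 overlapped between the groups, with 24.2, 125 and 71.1 in DMSO and 71.2, 59.7 and 93.8 in SKI-II, and its difference of 0.29 in log2 turned to -0.36 without DMSO replicate 1. Ddit3 against its dimer partner Cebpg was at 3.15, 6.35 and 9.20 in DMSO and 24.4, 13.5 and 9.25 in SKI-II, so the groups nearly touched. The ratio of Atf3 to Jdp2 differed by 1.18 in log2 and by 0.78 without SKI-II replicate 1, and that of Cebpb to Cebpa by 0.90 and by 0.59 without DMSO replicate 1. For Ddit3 to Cebpb the ratios overlapped, with a difference of 0.65 and of 0.25 without DMSO replicate 1. These 9 pairs were chosen after the data had been seen. With 3 libraries per group a two-sided exact permutation test cannot go below p = 0.1, which 7 of the pairs reached (0.129 with Benjamini-Hochberg adjustment over the 9 pairs).

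**Figure D3:**
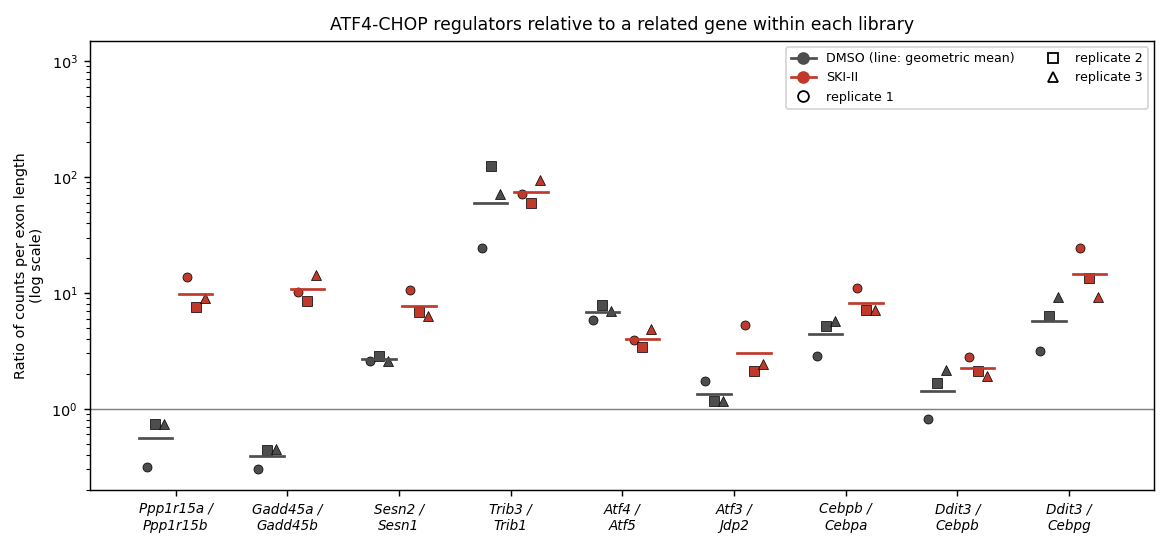
Ratio of the counts per exon length of one gene to those of a related gene within each library (y axis, log scale, with a line at 1), for 9 pairs, with short lines for the geometric mean of each group. The DMSO points of Ppp1r15a to Ppp1r15b and of Gadd45a to Gadd45b lie below 1 and the SKI-II points above 7, while the points of Trib3 to Trib1 overlap.

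Other genes around the axis were counted in lists of known function, to be read against the 18.4% of all tested genes called higher and the 19.7% called lower. Of 10 genes for eIF2 alpha phosphorylation, all tested, 2 were higher, 2 lower and 6 did not pass, which is near those shares, with a median log2 fold change of -0.31. Dnajc3, an inhibitor of PERK, rose by 1.13 on the log2 scale (adjusted p = 0.00154, edgeR's quasi-likelihood F test, Benjamini-Hochberg adjusted). Eif2ak2, the eIF2 alpha kinase PKR, had a log2 fold change of -1.08 (adjusted p = 0.00312, edgeR's test). Impact, an inhibitor of the amino acid sensing kinase GCN2, had 0.81 (adjusted p = 0.0416, edgeR's test), with overlapping groups. Its call was lost without DMSO replicate 2 or 3, without SKI-II replicate 1 or 2, with limma-voom and with library size alone. In the list as a whole, 2 genes were called when either DMSO replicate 2 or one of the first 2 SKI-II libraries was left out. With the replicate number as a block 7 were called, 5 of them lower. Eif2ak3, which encodes PERK and is named here after its values were seen, had 506 ± 44.5 normalized counts under DMSO and 511 ± 10.2 under SKI-II (SD, n = 3 each), a log2 fold change of 0.02 (adjusted p = 0.938, edgeR's test). At an earlier time the study reports higher PERK phosphorylation with SKI-II, which this mRNA level does not measure.

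The list of amino acid synthesis and uptake, for which ATF4 is best known, held 19 tested genes. Of these 7 were higher, 4 lower and 8 did not pass, with a median log2 fold change of 0.03, and the lower ones were near the 19.7% of all tested genes. Aldh1l2, a mitochondrial folate enzyme, rose from 1871 ± 330 to 11694 ± 837 normalized counts (SD, n = 3 each), a log2 fold change of 2.64 (adjusted p = 7.89e-06, edgeR's quasi-likelihood F test, Benjamini-Hochberg adjusted). The glycine transporter gene Slc6a9 rose by 1.79 on the log2 scale (adjusted p = 7.24e-05, edgeR's test). Slc1a5, which encodes a glutamine transporter, had a log2 fold change of -2.03 (adjusted p = 1.80e-05, edgeR's test), from a mean of 6259 normalized counts to a mean of 1527. Asns, the asparagine synthetase gene and a classical ATF4 target, named after its values were seen, was at 5485 ± 1091 and 5559 ± 379, a log2 fold change of 0.02 (adjusted p = 0.938, edgeR's test).

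Of 12 cytosolic tRNA synthetase genes, which ATF4 is also known to induce, 3 were higher, 0 lower and 9 did not pass in edgeR's test, with a median log2 fold change of 0.12. In the lower direction 2 had an unadjusted p below 0.05, and DESeq2 called 1 and limma-voom 0. Library size alone, no filter and leaving out DMSO replicate 1 each gave 1 lower. Leaving out SKI-II replicate 3 and taking the replicate number as a block each gave 2. Wars, Nars and Lars had log2 fold changes of 1.14, 0.55 and 0.53 (adjusted p of 0.000153, 0.0158 and 0.00571, edgeR's test). The call of Nars was lost without DMSO replicate 1 or 2 or SKI-II replicate 2, and 5 genes of the list, 2 of them lower, were called without SKI-II replicate 3.

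Among the effectors of stress and cell death, 8 of 16 tested genes were higher, 1 lower and 7 did not pass, with a median log2 fold change of 0.64. Vldlr and Fgf21 of this list had no counts. Sqstm1, the autophagy receptor p62 and a target of Nrf2 as well as of ATF4, rose by 3.07, Ero1l, an ER oxidase that CHOP induces, by 1.74 and Ddit4, an inhibitor of mTORC1, by 1.29 on the log2 scale. Their adjusted p were 1.20e-05, 0.000198 and 0.00548 in edgeR's test. Pmaip1, which encodes the death protein NOXA, had a log2 fold change of -1.07 (adjusted p = 0.0113, edgeR's test). Chac1, a glutathione-degrading enzyme downstream of ATF4 and CHOP, named after its values were seen, rose from 511 ± 89.7 to 1221 ± 327 normalized counts (SD, n = 3 each), a log2 fold change of 1.25 (adjusted p = 0.00146, edgeR's test).

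Gadd45a and Sesn2 are also p53 targets and Atf3 and Ppp1r15a also respond to acute signals, so lists of both kinds were counted. Of 9 tested p53 targets 1 was higher, 1 lower and 7 did not pass, with a median log2 fold change of 0.02. The called genes were Mdm2 at 0.64 and Aen at -0.63 (adjusted p = 0.0143 and 0.0427, edgeR's test). With DMSO replicate 2 or SKI-II replicate 1 left out the count was 0 in edgeR's test, with 2 and 1 at an unadjusted p below 0.05, where DESeq2 and limma-voom each called 2 over all libraries. Without DMSO replicate 3 or SKI-II replicate 2 it was 1.

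Of 12 immediate early genes 8 were higher, 1 lower and 3 did not pass, with a median log2 fold change of 1.00. Dusp1, Ier3 and Fosb, at 2.53, 2.38 and 2.05, had the largest rises, and Egr2 fell with a value of -1.75. The adjusted p in edgeR's test were 0.000537, 0.000175, 0.0113 and 0.00497. The call of Fosb was lost without SKI-II replicate 2, where 5 genes of the list were higher.

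**Figure D4:**
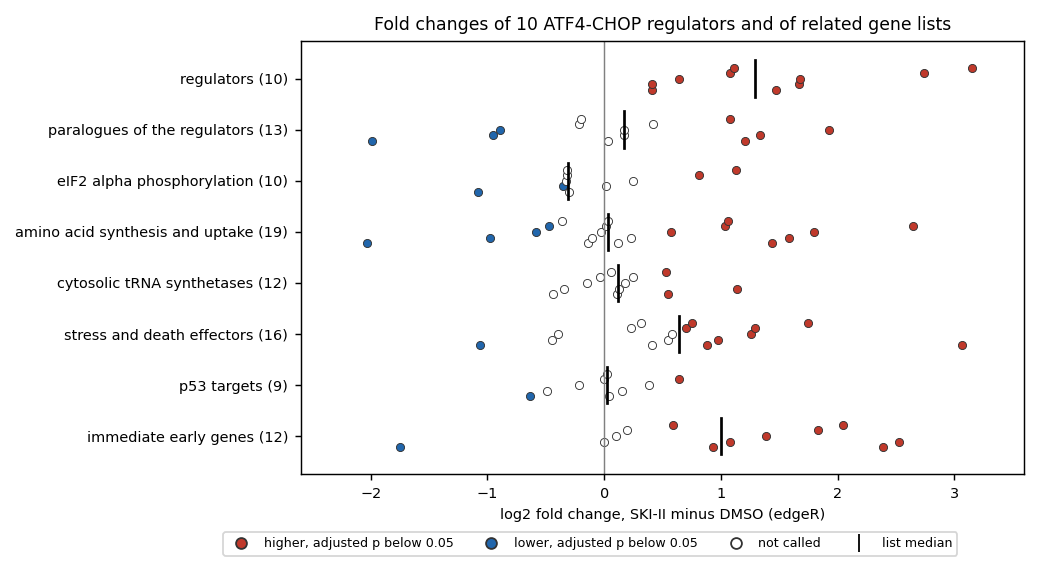
Fitted log2 fold change, SKI-II minus DMSO, of each tested gene of the 10 regulators and of 7 related lists, with filled points for an adjusted p below 0.05 and a bar for the median of each list. The median of the 10 regulators is 1.29 and that of the eIF2 alpha phosphorylation genes -0.31. Points are shifted vertically only to separate them.

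Over the 6 libraries, the genes with the highest Pearson correlation of log2 CPM to Atf4 were Agpat4 (r = 0.996), Ier3ip1 (r = 0.991) and Ube2b (r = 0.986). For Ddit3 they were Acvr1 (r = 0.993), Mbnl2 (r = 0.992) and Rpp21 (r = 0.992). With so few libraries, which share the same split into groups and library sizes, high values are common, and 3.48% of tested genes were above 0.9 for Atf4 and 4.49% for Ddit3. The values are therefore a description only.

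Macrophage markers were present in every library. All 9 entered edgeR's test, of which 2 were higher, 3 lower and 4 did not pass, where 18.4% of all tested genes were higher and 19.7% lower. Cd14 and Fcgr1 had log2 fold changes of 1.41 and 2.17, and Adgre1, Itgam and Lyz2 had -0.92, -0.93 and -1.26 (adjusted p of 0.000273, 1.56e-05, 0.00451, 0.00781 and 0.0172, edgeR's test). None of 14 markers of other cell types had enough reads for a test, and together they held 11 to 34 counts per library, with Ms4a1, Epcam, Krt8 and Ly6g among those at 0. The share of counts on mitochondrial genes was 1.07% to 1.25% in DMSO and 1.38% to 1.71% in SKI-II, and its part in the results was not tested.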

How the data were processed

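The data are 6 RNA-seq libraries of RAW264.7 macrophages, 3 with SKI-II and 3 with DMSO, grouped by the sample labels, with dose and time from the study's methods. Per the labels, mRNA was enriched with oligo(dT) beads, and the tools named there are Trimmomatic 0.36, STAR 2.5.2b, featureCounts of Subread 1.5.2 and DESeq2. The values used here are the raw counts of reads per Ensembl gene that the authors deposited, and their normalized values were not used here. The sources used here do not give the genome build, annotation release or strand setting. With unstranded counting, reads of a stretch shared by overlapping genes could not be assigned by strand.

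Names, positions and exon lengths came from GENCODE M21 (GRCm38), which named 49056 of 49315 genes, and the rest held 0.0102% of counts. Counts were fitted with edgeR 4.0.16 in R 4.3.3 (TMM factors of 0.941 to 1.05, filterByExpr, quasi-likelihood F test, Benjamini-Hochberg adjustment over 12274 genes). A gene counted as called below an adjusted p of 0.05. Normalized counts are on the scale of a mean library of 16042438 counts. The common coefficient of variation was 17.5%. No 2 libraries of a group differed by as little as sampling noise (chi-square per degree of freedom 15.4 to 58.1). Same-numbered libraries correlated at 0.246, 0.0099 and 0.458 in their deviations, so the numbers were not taken as pairs. Promoters are RefSeq's (GRCm38.p6), matched by symbol for 10 of 10 genes. The programs were tested on simulated data.

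The 10 genes and the lists were chosen with earlier results of these data known. Of each list, the text names the 3 called genes of largest change and the largest opposed one, besides all tested paralogues, and for Atf4 and Ddit3 the 3 genes most alike. Alternatives were DESeq2 1.42.0, limma-voom (limma 3.58.1), RLE scaling, library size alone, no filter, at least 10 counts in every library, a prior count of 2, the replicate number as a block, and each library left out. Leaving out libraries for the ratios was added after seeing the data. Figures were drawn with matplotlib 3.10.9.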

Additional observations from a re-analysis of the deposited data

How the results depend on the processing

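The log2 fold changes of all 10 genes were positive under each of the 14 alternatives. For 7 of them (Ddit3, Atf3, Trib3, Ppp1r15a, Cebpb, Sesn2 and Gadd45a) the call also held under all 14, and it held under 10 for Atf4, 8 for Cebpg and 13 for Nupr1. With a library left out, the log2 fold change ran from 0.30 to 0.46 for Atf4, from 0.29 to 0.50 for Cebpg and from 0.77 to 1.40 for Nupr1, with the largest adjusted p at 0.149, 0.148 and 0.0508 in edgeR's test. With library size alone Cebpg had 0.41 (adjusted p = 0.0509, edgeR's test). The cause of these lost calls was not tested. The fits that leave a library out also hold fewer libraries. The number of eIF2 alpha phosphorylation genes called, 4 over all libraries, was 2 to 4 with a library left out, that of tRNA synthetases, 3, was 2 to 5, and that of p53 targets, 2, was 0 to 3. With the replicate number as a block, 7 eIF2 alpha phosphorylation genes (5 lower) and 5 tRNA synthetases (2 lower) were called, and 2765 genes higher and 2819 lower against 2255 and 2413, while all 10 regulators were called either way. DMSO replicate 1 deviated most like SKI-II replicate 2, so the numbers are no more than a hint of pairing. Values that changed sign, none of them called, were those of Jdp2 (-0.058 to 0.36 with a library left out, lowest without DMSO replicate 1), Gadd45g (-0.017 with limma-voom, and -0.16, -0.049 and -0.18 without DMSO replicate 1, SKI-II replicate 1 and SKI-II replicate 2, up to 0.29 with another library left out) and the Trib3 to Trib1 ratio (-0.36 to 0.83 in log2, lowest without DMSO replicate 1). Depth was ample for the 10 genes, with a lowest count of 96 in any library.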
